A study of Mus musculus with 36 samples.

Results

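Ly6d, lymphocyte antigen 6 family member D, was followed in mouse liver RNA through regeneration in young and old animals. It is 1 of 21955 gene symbols in each count table. The gene was chosen by its measured counts, for the large excess in old liver at the time point labelled 48 over old liver before. The 6 libraries of those 2 groups thus chose it and the other 30 did not. Values that involve old liver before or at 48 are therefore given below as a description with no test.

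The samples were livers of C57BL/6JN mice, either young (4 months) or old (18 months), taken at 6 time points: a baseline labelled before, then 48, 72, 96, 120 and 240, for which no unit is stated. Aged animals are labelled as the treated group. Both ages share the strain and the whole series of time points, with no transgene and no drug named. Each of the 12 groups held 3 libraries, described as biological replicates, 36 in all. Total RNA depleted of ribosomal RNA was sequenced from frozen tissue, and the tables hold whole-number counts per gene.

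Ly6d encodes a small cell-surface protein of the Ly6/uPAR family, held on the outer membrane by a glycosylphosphatidylinositol anchor and folded as the cysteine-rich domain that names the family. In bone marrow it marks lymphoid progenitors that are turning to the B lineage, and in skin and other stratified epithelia it is found on keratinocytes. In bulk tissue, a change in the number of cells of a type and a change in RNA per cell cannot be told apart.

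The gene lies on the minus strand of chromosome 15 in build GRCm38, chr15:74762056-74763620 in the GENCODE M21 annotation. Its 3 exons of 112, 99 and 533 bases, from the start of the gene to its end, add up to 744 bases of exon. No other annotated gene overlaps it (0 found), so reads over it have no second annotated owner.

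Library totals ran from 2328233 to 6034446 counts, with a median of 4439170, and the 36 libraries hold 8379 Ly6d counts between them. Hepatocyte markers were abundant in every library: the summed level of that list lay between 61612 and 114130 CPM, counts scaled to library size. Old 48 replicate 2 stood apart, as described below, and old before replicate 1 had the most genes detected, 20255 against 15073 to 18309 elsewhere. Y-linked transcripts were present in 12 libraries, exactly 1 in each group.

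Ly6d was near the floor in young liver before and rose by more than an order of magnitude in the early time points. Young liver before held 1.25, 0.746 and 0.726 CPM (replicates 1 to 3), resting on 6, 3 and 3 counts. At 48 the young libraries were at 27.0, 19.1 and 71.5 CPM, and at 72 at 21.2, 127.1 and 20.9 CPM. Every one of these 6 libraries lay above every young library before, although at 72 a single library, replicate 2, carried most of the group mean.

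The later young libraries held less. At 96 they were at 8.05, 7.41 and 10.2 CPM (8.56 ± 1.48 CPM, SD, n = 3), the group with the smallest coefficient of variation of the 12 (17.3%). At 120 they were at 5.84, 19.3 and 10.8 CPM. At 240 they were at 0.563, 3.41 and 1.87 CPM, a range that includes all 3 young libraries before.

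The old mean was above the young mean at each of the 6 time points. Old liver before held 5.40, 4.47 and 1.14 CPM, from 23, 20 and 5 counts, and only replicate 3 fell within the young range before. At 48 the old libraries reached 167.8, 428.2 and 125.6 CPM. The highest of these, replicate 2, was the highest of all 36 libraries, 760.2 times the lowest, and in it 97.9% of the tested genes had a lower CPM than Ly6d.

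The later old libraries were lower than the highest at 48. At 72 the old libraries were at 110.6, 28.1 and 76.8 CPM, and at 96 at 170.5, 81.1 and 97.9 CPM. At 120 they were at 111.4, 43.7 and 87.6 CPM. At 240 they were at 26.4, 7.49 and 5.10 CPM, with replicate 3 inside the range before and the others above it.

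**Figure D1:**
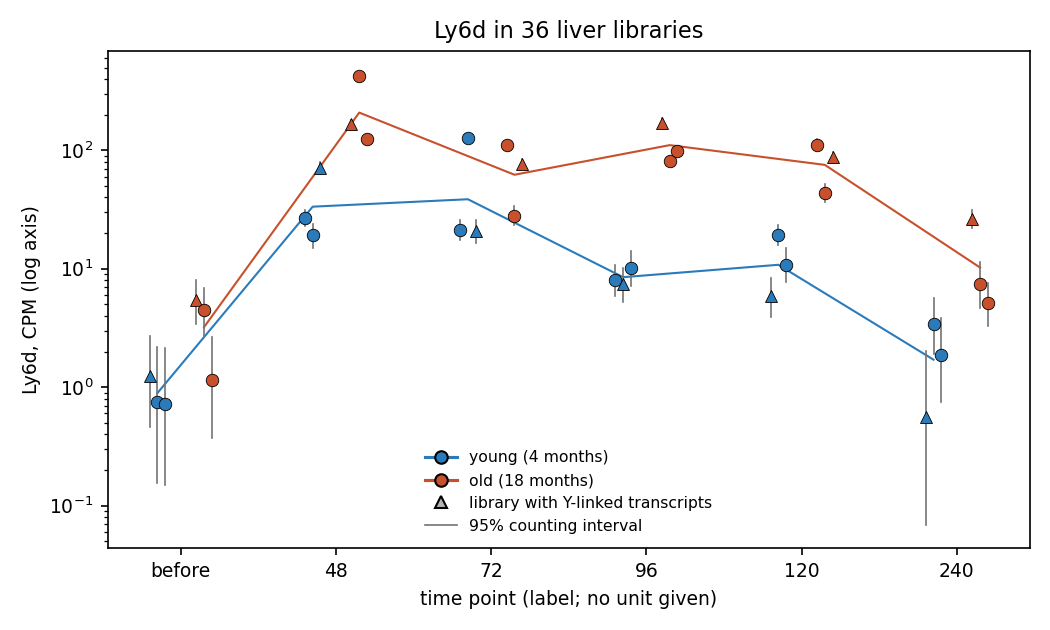
Ly6d in CPM (log axis) in each of the 36 libraries by time point label, young in blue and old in orange. Points are libraries, grey bars the 95% counting interval of each, triangles libraries with Y-linked transcripts, and lines join the group means of log2(CPM + 1) turned back to CPM; old libraries at 96 (81.1 to 170.5 CPM) lie well above young ones (7.41 to 10.2 CPM), while at 72 the ages overlap.

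Ranked by mean, old 48 came first with 240.5 ± 163.9 CPM (SD, n = 3 here and below), followed by old 96 at 116.5 ± 47.5, old 120 at 80.9 ± 34.3 and old 72 at 71.8 ± 41.5 CPM. Young 72 was next at 56.4 ± 61.2 and young 48 at 39.2 ± 28.2 CPM. Then came old 240 at 13 ± 11.7, young 120 at 12 ± 6.78 and young 96 at 8.56 ± 1.48 CPM. Old before (3.67 ± 2.24), young 240 (1.95 ± 1.43) and young before (0.907 ± 0.296 CPM) closed the order. Among neighbours in this order, young 96 and old before were the single pair whose ranges did not overlap. The spread was wide: in old liver at 48 the coefficient of variation was 68.1%, against a median of 26.3% over all tested genes, and 11.1% of genes varied more.

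Counting intervals cover the reads of a library and not the animals. Pooled over 3 libraries, the count ratio of young 48 over young before was 40.7 (95% interval from 23.1 to 79.2), and that of old 48 over old before was 66.5 (95% interval from 50.01 to 90.3). By ratio of mean CPM, young liver stood at 43.2 times its level before at 48, 62.2 times at 72, 9.44 times at 96, 13.2 times at 120 and 2.15 times at 240. The same ratios in old liver were 65.6, 19.6, 31.7, 22.0 and 3.54. Both series overlapped the range before only at 240.

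Against young before, edgeR's quasi-likelihood test on all 36 libraries called Ly6d higher at 48 and at 72. The log2 fold change was 5.36 ± 1.03 (SE) at 48, with a Benjamini-Hochberg adjusted p of 0.000401, and 3 of 3 libraries were higher; 12.2% of the 13436 tested genes were called higher there. At 72 it was 5.89 ± 1.02 with an adjusted p of 0.000502, again in 3 of 3 libraries, where 9.21% of genes were called higher. Both were called in each of the 36 fits that left out a library, and the value moved most without young 72 replicate 2, to 4.47 at 72, and without young 48 replicate 3, to 4.61 at 48.

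Later young time points did not pass with edgeR. The log2 fold change was 3.16 ± 1.11 at 96 (adjusted p 0.163, edgeR), a comparison with 1.4% of genes called, and 3.67 ± 1.08 at 120 (adjusted p 0.133), with 0.581% called. Their 95% intervals ran from 0.87 to 5.46 and from 1.44 to 5.90, and all 6 of these libraries lay above every young library before. With DESeq2 the adjusted p was 0.0143 at 96 and 0.00373 at 120, and edgeR fitted on only the groups compared gave 0.000979 and 0.00911, so these calls depend on the tool and on which libraries share the fit. At 240 the value was 1.11 ± 1.39 (adjusted p 1), with 0.246% of genes called and an interval from -1.74 to 3.96. A joint edgeR test of any difference among the 6 young time points gave an adjusted p of 9.81e-05, and 21.4% of genes passed it.

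**Figure D2:**
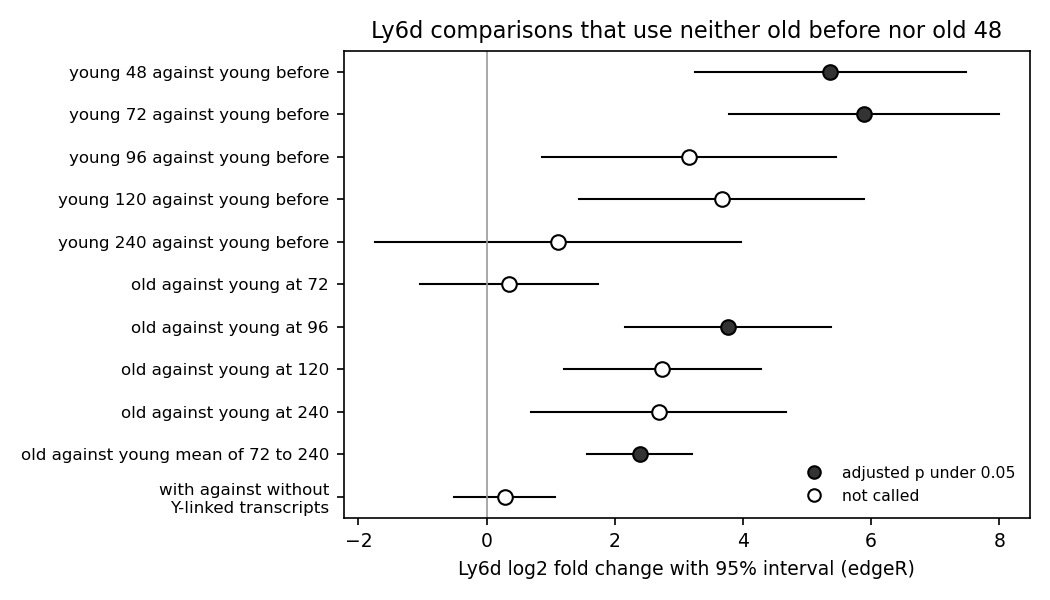
Log2 fold change of Ly6d (x axis) with its 95% interval from edgeR in the 11 single comparisons that use neither old liver before nor old liver at 48. Filled points have an adjusted p under 0.05: young 48 and 72 against young before, old against young at 96, and the mean age difference over 72, 96, 120 and 240; the intervals of young 240 against before (-1.74 to 3.96) and old against young at 72 (-1.04 to 1.75) include 0.

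The age comparison that did not choose the gene covers 72, 96, 120 and 240. Averaged over these, old liver had more Ly6d by a log2 fold change of 2.39 ± 0.40 (SE), with a 95% interval from 1.57 to 3.20 and an edgeR adjusted p of 0.00146; 1.91% of genes were called higher in old liver. The old mean was higher at all 4 time points. An exact permutation test that reassigned age within each time point (160000 assignments, two-sided, on log2(CPM + 1)) gave a difference of 2.24 and p = 0.000225.

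Taken singly, these time points differed in what could be called. At 96 the ratio of mean CPM was 13.6 and the log2 fold change 3.77 ± 0.78, with an adjusted p of 0.0474, where 0.134% of genes were called higher. The least of the old libraries at 96 held 7.93 times as much as the greatest of the young ones. This call sits at the threshold: it was lost in 16 of the 36 fits that left out 1 library, with the adjusted p reaching 0.227 without old 96 replicate 1, 0.188 without young 96 replicate 1, 0.121 without young 96 replicate 2, 0.101 without young 96 replicate 3 and 0.0782 without old 96 replicate 2. Each of the other 11, libraries of other groups, moved it to between 0.0508 and 0.0597. The log2 fold change stayed between 3.39 and 3.97 over all 36.

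At 120 the old libraries were at 6.75 times the young mean with no overlap, and the log2 fold change was 2.74 ± 0.75 (adjusted p 0.207, edgeR). No gene was called there by edgeR (0% of 13436), while 1321 had an unadjusted p under 0.05 and DESeq2 called 39. At 240 the ratio was 6.66, also with no overlap, with a log2 fold change of 2.69 ± 0.97 (adjusted p 0.825); 0.0149% of genes were called. The exact permutation test gave p = 0.1 at 96, 120 and 240 alike, the smallest that 3 libraries against 3 allow.

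At 72 the ages were close. Young replicate 2 (127.1 CPM) lay above all 3 old libraries, and old replicate 2 (28.1 CPM) lay near the other young ones, for a ratio of means of 1.27. The log2 fold change was 0.36 ± 0.68 (adjusted p 1.00, edgeR), with an interval from -1.04 to 1.75. Without young 72 replicate 2 it was 1.77, and without old 72 replicate 1 it was -0.10. No gene was called by edgeR at this time (0%), with 653 at an unadjusted p under 0.05 and 16 by DESeq2.

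Whether the age difference itself varied over 72, 96, 120 and 240 was tested jointly. The adjusted p was 0.961 (edgeR; unadjusted 0.0169), and 0% of genes passed, with 653 at an unadjusted p under 0.05 and 7 called by DESeq2. The joint test of any difference among these 4 time points in old liver gave an adjusted p of 0.0907, where 1.93% of genes passed; with DESeq2 it was 0.0356. The 3 old libraries at 240 (5.10 to 26.4 CPM) all lay below the 3 at 120 (43.7 to 111.4 CPM).

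In the 2 groups that chose the gene and their counterparts, old exceeded young by 4.05 times in mean CPM before, with overlapping ranges, and by 6.14 times at 48, with none. The lowest old library at 48 held 1.76 times the highest young one. The fitted log2 values, with no test, were 1.96 before and 2.62 at 48, and old 48 against old before was at 6.03. As differences of mean log2(CPM + 1), old 48 against old before stood at 5.63 and ran from 5.12 (without old 48 replicate 2) to 6.00 (without old 48 replicate 3).

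Libraries with Y-linked transcripts had no set place in Ly6d over all groups, but their place differed between the ages. That library was the highest of its group in 5 groups, the lowest in 4 and the middle in 3. All the groups where it was lowest were young, at 72, 96, 120 and 240. In old liver it was the highest before, at 96 and at 240, and the middle at 48, 72 and 120. As a term over the 30 libraries that did not choose the gene, the presence of Y-linked transcripts had a log2 value of 0.29 ± 0.38 (edgeR adjusted p 0.733, 95% interval from -0.50 to 1.08), in a comparison where 7.93% of genes were called. That term was common to both ages, so it does not show a difference between them. The age difference over 72, 96, 120 and 240 was positive on both sides of the split: 3.501 on the log2(CPM + 1) scale among libraries with Y-linked transcripts, with 1 library per age and time, and 1.62 among those without, with 2.

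A small set of liver transcripts followed Ly6d across libraries. Of 12496 genes compared by Pearson's r of log2(CPM + 1) over the 36 libraries, the nearest was Lcn2 (r = 0.914, Spearman's rho = 0.887), a secreted lipocalin of the acute-phase response that binds iron-carrying siderophores. The others of the first 10 were Syt12 (0.910), of the synaptotagmin family, Traf3 (0.899), an adaptor of TNF-receptor signalling, Ccdc120 (0.897), Sowahb (0.895), the tropomyosin Tpm1 (0.895), Lrfn3 (0.871), the adenine-salvage enzyme Aprt (0.865), the tropomyosin Tpm3 (0.861) and the apolipoprotein Apoa4 (0.857). The median r of all genes was -0.0019 and the 99th percentile 0.759. These values are descriptions: the points share time course, age and library, and the genes were chosen for them.

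Lcn2 had the larger range. Its mean level in young liver was 2.74 CPM before, and over the 5 later time points in turn 335.6, 218.9, 68.7, 82.4 and 13.3 CPM. The old means were 19.3 CPM before, then 891.2, 254.2, 312.1, 281.1 and 44.6 CPM. The old libraries at 48 held 683.5, 1694 and 295.8 CPM, the same order of replicates as for Ly6d. Syt12 was at 28.5, 75.4 and 31.5 CPM in those libraries, so its highest library was also replicate 2, while Apoa4 (14563, 4945 and 3336 CPM) peaked in replicate 1.

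Part of the likeness remained once group means were removed, to a degree that varied by gene. Some of it was built in, since the genes were chosen over the same libraries. Deviations from the group means correlated with those of Ly6d at r = 0.718 for Traf3, 0.714 for Aprt, 0.639 for Tpm3 and 0.548 for Lcn2, but at 0.250 for Apoa4. The rest of the first 10 lay between 0.367 (Lrfn3) and 0.524 (Syt12). By this measure Traf3 ranked 2, Lcn2 154 and Apoa4 2308 of the 12496 genes. Over the 12 group means, r was 0.957 for Lcn2 and 0.959 for Sowahb. Without the 2 libraries farthest from the Ly6d median, old 48 replicate 2 and young 240 replicate 1, the r of Lcn2 was 0.895 and that of Traf3 0.899.

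The list moved somewhat when the 6 libraries that chose the gene were left out. Over the other 30, the nearest were Sowahb (0.901), Ifi27l2b (0.889), Traf3 (0.888), Lcn2 (0.886) and Tmem176a (0.879). Of the first 10 over 36 libraries, 5 were among the first 10 over 30 and all 10 among the first 50. Ifi27l2b had a lower r over 36 libraries, 0.824, and in old liver at 48 it was lowest in replicate 2, at 23.9 CPM against 93.8 and 94.9.

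The lowest correlations belonged to genes whose mean was lower at 48 than before in both ages. Tprkb, of the tRNA-modifying KEOPS complex, had r = -0.888 over 36 libraries, and Ghr, the growth hormone receptor, had r = -0.884. Lrit2 (-0.882), the amino acid transporter Slc38a4 (-0.871) and Lrit1 (-0.867) followed. Ghr stood at a mean of 1088 CPM in young before and 408.6 at 48, and at 874.2 and 244.6 CPM in old liver. In young liver at 96 it was back at 836.9 CPM, whereas in old liver at 96 it was at 450.9. In all, 53 genes had r above 0.8 and 104 below -0.8.

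**Figure D3:**
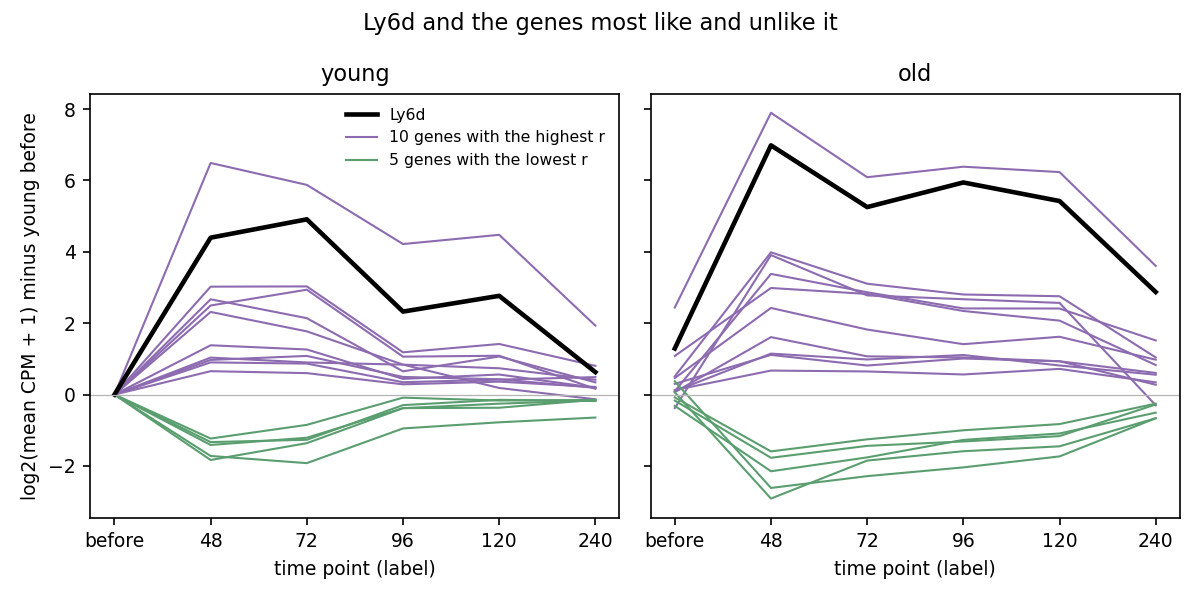
Log2(mean CPM + 1) of each group minus that of young before (y axis) by time point label, young on the left and old on the right, for Ly6d (black), the 10 genes with the highest r over 36 libraries (purple) and the 5 with the lowest (green). The upper purple line is Lcn2; from 48 to 120, its values and those of Ly6d are larger than those of the other 9.

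Ly6d lies within a cluster of Ly6/uPAR genes, with Lynx1 the nearest annotated neighbour on one side, 9.08 kb away, and Ly6k on the other, 33.3 kb away. Of the 10 genes on either side with a row in the tables, 5 were abundant enough to test: Jrk, Them6, Lynx1, Ly6e and Ly6a. The other 15 included Psca, Slurp1, Ly6k, Ly6i, Ly6c1 and Ly6c2, all with a mean under 1 CPM.

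Lynx1, whose product binds nicotinic acetylcholine receptors, rose in young liver by a log2 fold change of 1.32 at 48 (adjusted p 0.0360, edgeR) and 1.53 at 72 (adjusted p 0.0193). In old liver at 48 it was at 1.06 with an adjusted p of 0.0552, and its 3 libraries held 7.34, 20.5 and 7.16 CPM. Them6 rose in young liver at 48 (1.05, adjusted p 0.0172) and 72 (1.53, adjusted p 0.00146), and in old liver at 72 (0.91, adjusted p 0.0438). Jrk rose at 48 in young (0.88, adjusted p 0.0418) and old liver (0.88, adjusted p 0.0361), and at 72 in both (1.42, adjusted p 0.00221, and 1.26, adjusted p 0.00674). In the same comparisons the log2 values of Ly6d were between 4.28 and 6.03. Of all tested genes, 12.2% were called higher in young liver at 48 and 9.21% at 72. In old liver these shares were 12.1% at 48 and 6.54% at 72.

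On the other side, Ly6e and Ly6a were not called at 48 or 72 in either age. Ly6e, an interferon-inducible member that is broadly expressed, had log2 values of -0.03 in young and -0.58 in old liver at 48. Ly6a, the stem-cell antigen Sca-1, had -1.04 and 0.07. Their r with Ly6d over 36 libraries was 0.286 and 0.172, against 0.744 for Them6, 0.684 for Lynx1 and 0.615 for Jrk. Averaged over 72, 96, 120 and 240, Them6 was the neighbour called between the ages (0.60 higher in old liver, adjusted p 0.0260, edgeR), beside 1.91% of all genes called higher. Ly6e was at 0.67 there with an adjusted p of 0.101.

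Of 44 listed members of the Ly6/uPAR family other than Ly6d, 33 had a row and 5 could be tested: Ly6a, Ly6e, Lynx1, Gpihbp1 and Cd59a. Gpihbp1, which carries lipoprotein lipase across the capillary wall, and Cd59a, which blocks the membrane attack complex of complement, fell in young liver at 48 by 0.89 (adjusted p 0.0118) and by 0.71 (adjusted p 0.0207) on the log2 scale. Both also fell at 72. So in young liver 1 of 5 rose and 2 fell at 48, where 21.9% of all genes were called either way, and the counts were the same at 72, where 17.4% were called. In old liver at 48, where 24.1% of genes were called, Cd59a fell by 0.69 (adjusted p 0.0237) and the rest did not pass; without old 48 replicate 2 none of the 5 passed by edgeR. In the fit of all 36 libraries 2 had an unadjusted p under 0.05, and DESeq2 called 1.

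The median log2 change of these 5 was -0.71 in young liver at 48 and -0.45 in old, beside -0.01 and 0.01 over all tested genes. Between the ages, averaged over 72, 96, 120 and 240, none was called by edgeR, 1 had an unadjusted p under 0.05 and DESeq2 called 1; 3.21% of genes were called either way. On the per-kilobase scale, the level of Ly6d went from 1.22 CPM per kb of exon in young before to 323.3 in old 48. The most abundant tested relative, Ly6e, had a mean level of 143.6 CPM per kb over all 36 libraries, and Cd59a had 24.9. The Ly6d values are of single groups, so they are not like for like with these means. Over all 36 libraries, before division by length, Ly6d had a mean of 53.8 CPM and Ly6e 543.3 CPM.

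Cell types known for Ly6d were checked by marker lists. The B lineage list, 20 genes with 11 tested, summed to between 15.8 and 96.6 CPM over the 36 libraries, and was lower in old liver at 48 (15.8 to 40.1) than before (43.6 to 88.7). There 4 of 11 fell and none rose, beside 24.1% of all genes called either way: Cd79b, a chain of the B-cell receptor, by 2.67 on the log2 scale (adjusted p 0.00157), Ms4a1, which encodes CD20, by 2.33 (adjusted p 0.0151), Cd22 by 1.85 (adjusted p 0.00321) and Bank1 by 1.39 (adjusted p 0.0470). Without old 48 replicate 2 the count was 2. In the fit of all 36 libraries the list had a median of -1.39 in that comparison, beside 0.01 for all genes. Old against young liver, its median was 0.91 before and -0.08 at 48. By edgeR 0 of 11 were called in either, beside 0.0595% and 11.2% of all genes called either way. In young liver 0 of 11 were called at 48 or at 72, beside 21.9% and 17.4% of all genes. The progenitor genes Rag1, Rag2, Vpreb1, Vpreb3 and Igll1 were each at 0 in 23 to 30 of the 36 libraries.

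The keratins of stratified epithelium were close to absent, while the list summed to between 151.9 and 275.7 CPM, nearly all of it Perp (mean 200.4 CPM), a p53 target found in desmosomes. Of 15 genes with a row, 2 could be tested, Perp and Sfn, and neither was called in old liver at 48 by edgeR or DESeq2, with 0 at an unadjusted p under 0.05. The basal and suprabasal keratins Krt5, Krt14, Krt15, Krt17, Krt4 and Krt13 were at 0 in 20 to 34 of 36 libraries and never reached 1 CPM. Ivl, involucrin of the cornified envelope, was the exception, as given below; it was named after its values were seen. By mean log2 level, the list was highest of all 36 libraries in old before replicate 1 (1.22), followed by old 48 replicate 2 (1.17).

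Among 14 cholangiocyte genes 7 were tested, and the bile-duct markers Bicc1 (2.11, adjusted p 0.0114), Krt19 (2.36, adjusted p 0.0205) and Spp1 (1.86, adjusted p 0.0403) rose in young liver at 72, where 9.21% of all genes were called higher. At 48 in young liver, 1 of 7 fell (Ehf, by 1.56, adjusted p 0.0464), beside 9.79% of all genes. In old liver at 48 against before none of the 7 was called by edgeR or DESeq2, with 1 at an unadjusted p under 0.05. Against young liver at 48, 1 of 7 was higher in old liver (Spp1, by 2.03, adjusted p 0.0366, edgeR), beside 4.42% of all genes. Spp1 was not called without old 48 replicate 2. The list summed to 109.1, 272.5 and 103.9 CPM in the old libraries at 48 and to 208.0, 368.0 and 85 CPM in the young libraries at 72, so it was highest in the library with the most Ly6d of each of these groups. In no other group did the library with the most Ly6d have the highest sum. It had the lowest, for example, in young liver at 48 (62.3 CPM, against 83.3 and 84.9) and in old liver at 72 (72.7 CPM, against 92.2 and 106.4). The part of these cell types in the level of Ly6d was not tested.

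Proliferation genes differed between the ages in the opposite direction to Ly6d at 48, but in the same direction at 96 and 120. In young liver all 30 rose at 48 and at 72, with a median log2 fold change of 5.19 and 4.01 beside -0.01 and 0.01 for all genes, of which 12.2% and 9.21% were called higher. In old liver 7 of 30 rose at 48, beside 12.1% of all genes, among them the mitotic ubiquitin-conjugating enzyme Ube2c (3.28, adjusted p 0.0395) and the topoisomerase Top2a (2.35, adjusted p 0.0349). This count was 22 without old 48 replicate 2 and 17 by DESeq2. All 30 rose in old liver at 72 (12.4% of genes called either way), 28 at 96 (6.82%) and 12 at 120 (3.87%; 19 by DESeq2).

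At 48, then, old liver had less of 29 of the 30 proliferation genes than young liver, with a median of -3.11 beside 0.02 for all genes; 11.2% of genes were called either way, and the count was 21 without old 48 replicate 2. Ly6d in the same groups was at 6.14 times the young mean. Averaged over 72, 96, 120 and 240, 9 of the 30 were higher in old liver and none lower, beside 1.91% of all genes called higher. At 96 the median of the list was 1.61, with 29 of 30 at an unadjusted p under 0.05 and 1 called by edgeR. At 120 it was 1.44, with 16 at such a p and 0 called. Of all 13436 tested genes, 1778 at 96 and 1321 at 120 had such a p. At 72 the median was 0.19, with 0 of 30 at such a p. Mki67, a marker of cycling cells named after its values were seen, had a mean of 2288 CPM in young 48 and 243.2 CPM in old 48.

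**Figure D4:**
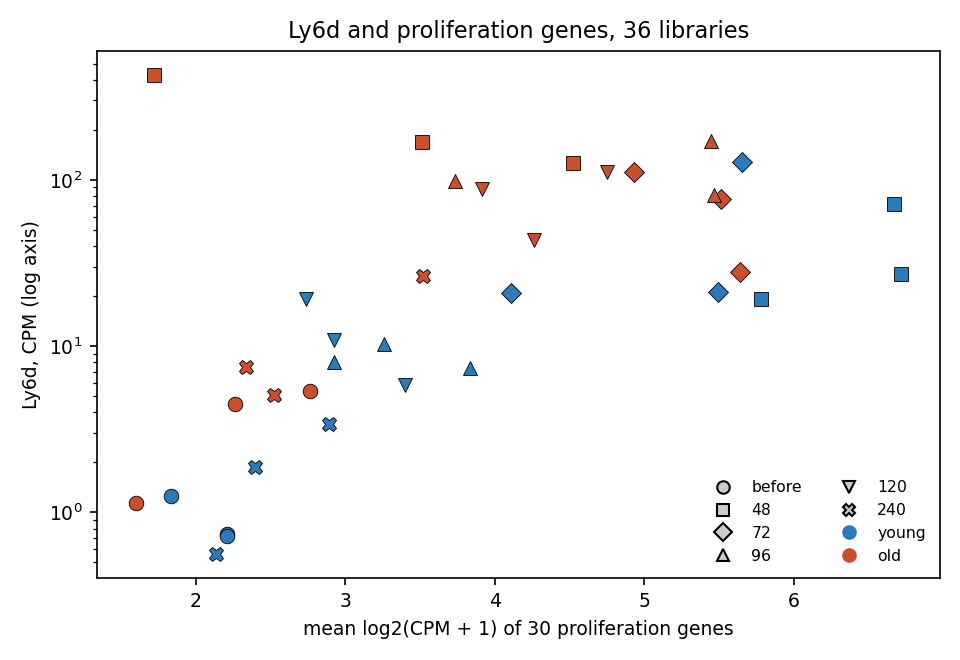
Ly6d in CPM (y axis, log) against the mean log2(CPM + 1) of 30 proliferation genes (x axis) in 36 libraries, coloured by age, with a marker shape for each time point label. Old 48 replicate 2 sits alone at the upper left, with 428.2 CPM of Ly6d and a proliferation mean of 1.72.

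The 3 old libraries at 48 differed from each other in more than Ly6d. The mean log2 level of the proliferation list was 3.51, 1.72 and 4.52 in replicates 1 to 3, and Mki67 was at 154.0, 14.0 and 561.5 CPM. So the library with the most Ly6d of all 36 had less Mki67 than any other. The hepatocyte list had means of 9.67, 8.89 and 9.76 on the same scale, replicate 2 again the lowest.

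That library also held transcripts that were near 0 elsewhere. Ivl was at 40.5 CPM in replicate 2, against at most 0.574 CPM in any other of the 36 libraries. Gml and Gml2, which lie about 50 and 55 kb from Ly6d, were at 3.44 and 5.47 CPM there, and at most 0.242 and 0.276 CPM elsewhere. Plaur, the urokinase receptor that gives the family its second name, was at 6.89 CPM, against at most 1.72 CPM elsewhere; it was named after its values were seen. Without this library, the mean log2 level of Ly6d in old 48 exceeded that before by 5.12, and the other 2 libraries (167.8 and 125.6 CPM) still lay above every young library at 48.

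Genes of lipid droplets and of the p53 response were the other lists read beside Ly6d. In old liver at 48, 10 of 25 lipid droplet genes rose and 2 fell (24.1% of all genes were called either way), with a median of 0.65 beside 0.01 for all genes. The largest rises were Fabp4, a fatty acid carrier (4.44, adjusted p 0.000133), and Hilpda, which inhibits triglyceride breakdown (4.05, adjusted p 0.000167), and the falls were Pnpla3 (by 4.48, adjusted p 0.000693) and Dgat2 (by 0.91, adjusted p 0.00549). Without old 48 replicate 2, 4 rose and 2 fell. Fabp4 was at 11.1, 38.5 and 1.84 CPM and Hilpda at 9.56, 56.3 and 3.89 CPM in replicates 1 to 3, each in the order seen for Ly6d. Pnpla3 (0.667, 6.68 and 1.02 CPM) and Dgat2 (326.8, 148.1 and 271.4 CPM) were not in that order. The list summed to 1420 CPM in replicate 3, below each old library before (1618 to 2205 CPM). In young liver 0 of 25 rose at 48 or at 72. There 3 fell at 48 and 2 at 72, beside 21.9% and 17.4% of all genes called either way.

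Among 20 p53 targets, 4 rose and 3 fell in old liver at 48, where 24.1% of all genes were called either way. Cdkn1a, the cell-cycle inhibitor p21, rose by 4.33 (adjusted p 0.000209) and was at 54.9, 191.2 and 69.7 CPM. Aen rose by 1.42 (adjusted p 0.000490), while Bbc3 fell by 0.84 (adjusted p 0.0397) and Plk2 by 0.78 (adjusted p 0.0475). Without old 48 replicate 2, 3 rose and 1 fell. In young liver at 48, 9 rose and 4 fell, beside 21.9% of all genes.

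Hepatocyte genes were mixed in old liver at 48, where 12.1% of all genes were called higher and 12% lower: 3 of 22 rose, including the fibrinogen chains Fga (1.36, adjusted p 0.00411) and Fgg (1.17, adjusted p 0.00758), and 8 fell, among them the cytochrome P450 Cyp2c29 (by 3.38, adjusted p 0.00101). Without old 48 replicate 2, 2 rose and 3 fell. In old 48 replicate 2, where Ly6d was highest, the mean log2 levels of the proliferation, B lineage and hepatocyte lists were the lowest of the 3 old libraries at 48, and those of the lipid droplet, p53 target, cholangiocyte, stratified epithelium and Ly6/uPAR lists the highest. For 3 of these lists the order depended on the measure. By summed CPM, replicate 2 was the lowest for the Ly6/uPAR list (281.2, against 469.9 and 477.2 in replicates 1 and 3). It was also below replicate 1 for stratified epithelium (252.0 against 267.8) and p53 targets (1189 against 1479). On the log2 scale its lead in p53 targets was narrow, 4.887 against 4.871 in replicate 1. The part of these lists in the level of Ly6d was not tested.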

How the data were processed

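The authors deposited 1 table of whole-number counts per gene for each library, per the file headers. The submitters' processing notes name builds GRCm38 and mm10, bcl2fastq 2.20.0, Trimmomatic 0.39, STAR 2.7.5b, SAMtools 1.10 and featureCounts; counting settings and strand are not given in the sources used here. Of 21955 symbols, 27 are names turned into dates, and no ERCC spike-in rows were found (0). Counts were scaled by TMM (factors 0.930 to 1.133), filtered by filterByExpr on the 12 groups (13436 genes) and fitted in 1 model of 36 libraries with edgeR 4.0.16 in R 4.3.3 (robust quasi-likelihood, Benjamini-Hochberg adjustment within each comparison, calls under 0.05). DESeq2 1.42.0 was an alternative. CPM are TMM-scaled, logs use a pseudocount of 1, and intervals are 95%. The gene and lists were chosen with earlier results of these data known. Genes named are Ly6d, tested family members, the 10 neighbours on each side, the 10 highest, 5 lowest and, over 30 libraries, 5 highest correlations, and the 2 largest called rises and falls of each list; 1 gene under this rule is not reported here. Replicates are biological, per the labels' design text. The fit was tested on simulated data. Coordinates are from GENCODE M21, while distances to neighbours use a gene model of Ly6d that ends at 74763567.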

Additional observations from a re-analysis of the deposited data

How the results depend on the processing

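Of 663 alternative values of the Ly6d results, 637 counted as unchanged, 17 lost a call, 6 gained one and 3 turned in sign. Unchanged means the same side of the threshold and, outside the joint tests, the same direction. For old 48 against old before, which has no test, it means a shift smaller than the SD of old 48 in log2(CPM + 1). Without a filter on low counts, old against young at 96 was at 3.78 (adjusted p 0.0594). With only the groups compared in the fit, young 96 and 120 against before were called (3.17 and 3.67), as they were by DESeq2 (3.21 and 3.70), which also called the old time points 72 to 240 jointly (0.0356). Leaving out each library in turn, the age difference ran from 3.39 to 3.97 at 96, where 16 fits lost the call, and from -0.10 to 1.77 at 72, which was never called; it turned negative without young 72 replicate 1, young 72 replicate 3 or old 72 replicate 1. Those at 96 include, outside that time, young before replicates 1 to 3, young 48 replicate 1, young 72 replicate 1, young 120 replicates 2 and 3, young 240 replicates 1 to 3 and old before replicate 2. The joint old test ran from 0.0472 (without young 72 replicate 2, where it was called) to 0.416. The mean age difference was called in all 36 fits, from 2.11 to 2.74.

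Replicate numbers recur in every group, but the labels tie them to no shared animal or day. Deviations of same-numbered libraries of an age had a mean r of 0.0582 over 90 pairs, 38 of them over 0.1, against -0.0246 over 180 pairs of unlike number. Between the ages the mean r was 0.0529 over 108 same-numbered pairs and -0.0224 over 216 others. These small differences were not tested, so a shared effect of replicate number is not excluded. With a replicate block nested in age, the mean age difference was 2.42 (adjusted p 0.000981), that at 96 was 3.66 (adjusted p 0.0248) and no Ly6d call changed. Counts of called list genes moved by over 1.5 times in 81 of 954 alternatives, counting the 10 genes most like Ly6d. Additions made after seeing the data, the fit without the robust option and leaving out single libraries for the lists, are among these, as is the exact permutation test (2.24). Depth limits the low groups: young before rests on 12 Ly6d counts and young 240 on 24.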
